A study of Mus musculus with 9 samples.

Results

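Of the genes that build peroxisomes or carry out their oxidation of fatty acids, 34 were measured among the 14507 genes of the array table. They were chosen by name, as 23 listed enzymes, transporters and membrane proteins plus every gene whose symbol is Pex followed by a digit. The 34 genes are 21 of the listed genes and 13 Pex genes, and other members are not analysed here. A probe set is an exon-level unit of the array. Each gene was summarised as the median of the log2 intensities of its probe sets, of which the 34 genes had 1 (Acaa1a) to 25 (Abcd3 and Hsd17b4). The study compared 3 compartments of the tail skin's epidermis: the sebaceous gland (SG), the hair follicle (HF) and the epidermis between follicles (interfollicular, IFE). All were manually microdissected, from female mice of wild type genotype and C57BL6/CBA background. Each compartment had 3 biological replicates, each from pooled pieces, and the labels name no treatment or transgene in any group; the mice were adult and matched for age, with no age in weeks given. A dissected piece is a tissue fragment, so fewer cells of a type and less RNA per cell cannot be told apart in these values.

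Peroxisomes are organelles bounded by a single membrane that shorten very long, branched and otherwise awkward fatty acids by beta oxidation and destroy the hydrogen peroxide this produces. They also begin the synthesis of ether lipids, and the Pex proteins (peroxins) insert their membrane proteins, import their enzymes and divide them. In the sebaceous gland they are found in sebocytes, cells that fill with lipid and burst to release sebum.

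For 9 of 9 arrays the description carried an array name pointing to a compartment other than the titled one, so the titles set the groups and markers were used to check them. Sebocyte markers (11 of 12 measured) averaged 10.34 to 10.75 log2 intensity on the SG arrays, 8.26 to 8.86 on the HF arrays and 6.36 to 6.80 on the IFE arrays. Hair follicle markers (12 of 12) averaged 8.27 to 9.71 on the SG arrays, 10.41 to 10.76 on the HF arrays and 6.87 to 6.95 on the IFE arrays. Markers of interfollicular differentiation (9 of 12) averaged 9.73 to 9.89 on the SG arrays, 9.90 to 10.40 on the HF arrays and 11.29 to 11.51 on the IFE arrays. Each list was therefore highest in the compartment of the titles. SG replicate 3 stood apart from the other SG arrays: its follicle marker mean was 9.71, and across genes it correlated more with HF replicate 2 (r = 0.93) than with SG replicate 1 (r = 0.921). Its closest array was SG replicate 2 (r = 0.935). Markers of adipocytes (8 of 8 measured) averaged 7.10 to 7.25 in SG, 7.12 to 7.22 in HF and 6.99 to 7.11 in IFE, and those of Langerhans and T cells (7 of 8) averaged 7.47 to 7.66 in SG, 6.66 to 6.93 in HF and 7.10 to 7.50 in IFE. Fibroblast markers (5 of 7) averaged 7.06 to 7.64 in SG, 7.41 to 7.48 in HF and 6.95 to 7.21 in IFE, and melanocyte markers (5 of 6) averaged 6.97 to 8.25 in SG, 6.92 to 7.07 in HF and 6.75 to 7.37 in IFE. Vessel and muscle markers (6 of 6) averaged 6.60 to 6.71 in SG, 6.69 to 6.88 in HF and 6.32 to 6.54 in IFE. The part of these cells in the results below was not tested.

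**Figure D1:**
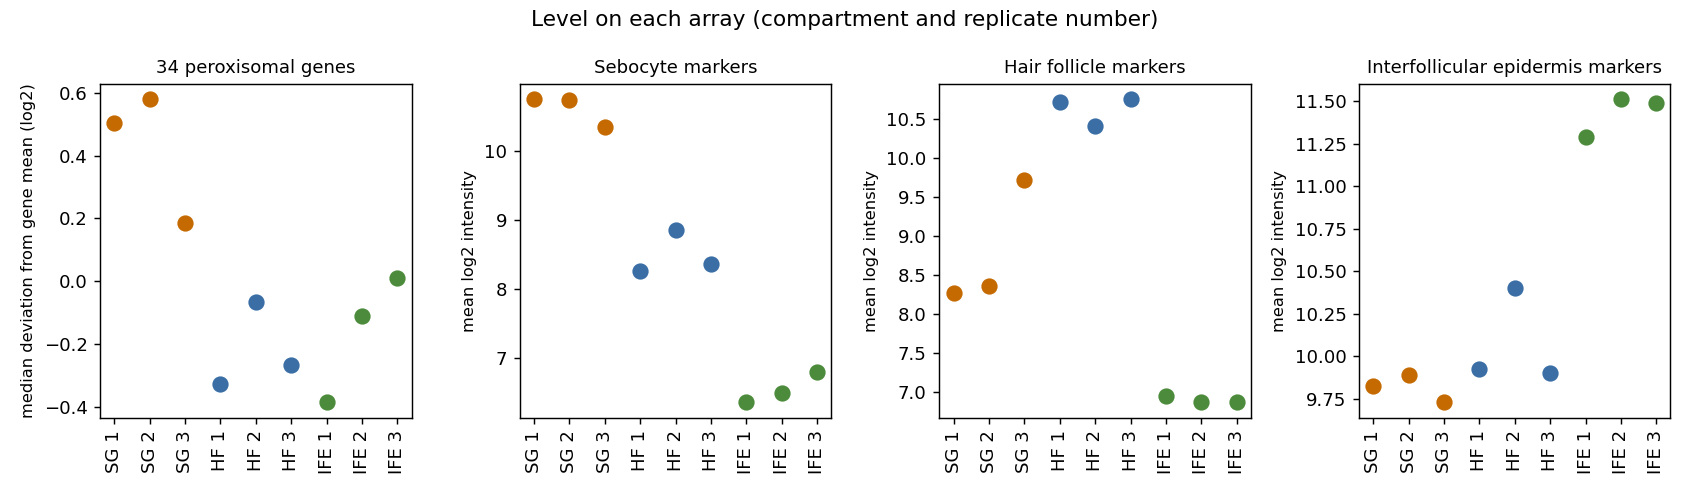
Level on each of the 9 arrays (x axis, compartment and replicate number) of the 34 peroxisomal genes (first panel, the median over genes of the deviation from each gene's mean, log2) and of 3 marker lists (mean log2 intensity). The 3 SG arrays lie highest for the peroxisomal genes, with SG replicate 3 at 0.19 against 0.50 and 0.58 on the other SG arrays, and the 3 HF and 3 IFE arrays lie between -0.39 and 0.01.

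In the SG, 10 of the 34 genes were higher and 1 was lower than in the IFE. The threshold throughout was a limma p under 0.05 after Benjamini-Hochberg adjustment together with a log2 difference of 1 or more. The 10 genes were 5 of 8 beta oxidation enzymes (Acoxl, Acox2, Acox3, Hsd17b4 and Scp2), the membrane protein gene Pxmp4, catalase, and the peroxins Pex11a, Pex19 and Pex3. Among all genes 2.54% passed upward and 6.96% passed downward in this comparison. The share of the 34 genes was 29.4% upward and 2.94% downward. The median log2 difference of the 34 genes was 0.35, and that of all genes was -0.06. On every SG array 15 of the 34 genes (44.1%) lay above every IFE array, which held for 13.2% of all genes. The reverse, every SG array below every IFE array, held for 1 member, Abcd4, and for 21.7% of all genes. At an adjusted p under 0.05 with no demand on size, 15 members were higher (6.07% of all genes) and 1 was lower (15.8% of all genes). Passing in either direction were 11 members and 9.49% of all genes.

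Against the HF, the SG was higher in 11 of the 34 genes and lower in 1. Those higher were 6 of 8 beta oxidation enzymes (Acoxl, Scp2, Acox3, Hsd17b4, Ehhadh and Ech1), Pxmp4, catalase, and the peroxins Pex11a, Pex3 and Pex16. The background was 1.81% of all genes upward and 3.3% downward, or 5.11% in either direction, against 12 of the 34 genes. With no demand on size, 14 members were higher (3.26% of all genes) and 1 lower (6.2%). Without overlap of the arrays, 18 members were higher (12.1% of all genes) and 3, Agps, Crot and Phyh, were lower (17.2%). The 2 comparisons share the SG arrays and are not independent of each other. With that sharing, 8 members (Acoxl, Acox3, Hsd17b4, Scp2, Pxmp4, Cat, Pex11a and Pex3) were called higher in the SG in both, where 0.979% of all genes were. By group means, 21 of the 34 genes were highest in the SG, 5 in the HF and 8 in the IFE. Among all genes 31.6% were highest in the SG, 25.1% in the HF and 43.3% in the IFE.

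**Figure D2:**
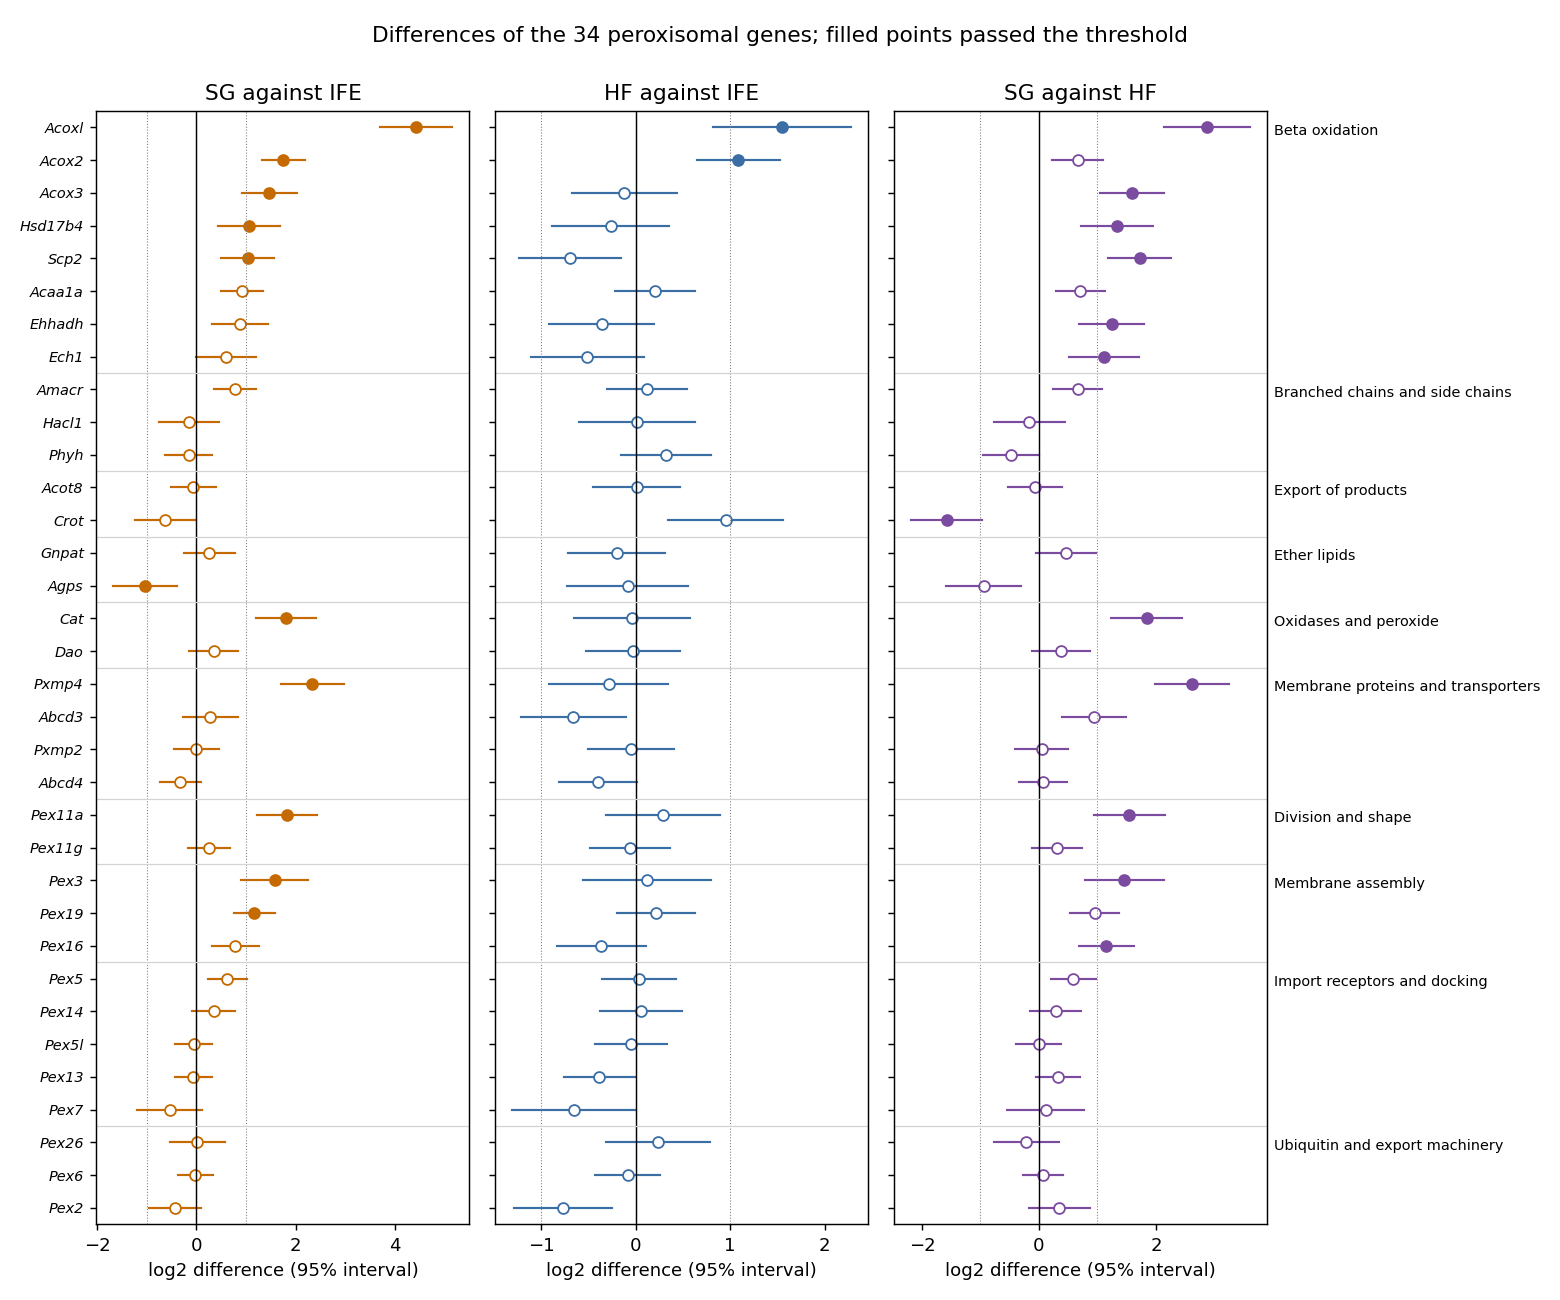
Log2 difference (x axis) of each of the 34 genes, ordered by role, in the 3 comparisons, with the 95% interval of the limma fit. Filled points passed the threshold: 11 in SG against IFE, 2 in HF against IFE and 12 in SG against HF, with Acoxl farthest to the right in all 3 panels.

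The promoters of the 4 genes with the largest SG against IFE differences among those 8 are shown because these genes were called higher in the SG against both other compartments; in HF against IFE they differed by 1.55 (Acoxl), 0.29 (Pex11a), -0.04 (Cat) and -0.29 (Pxmp4). They are RefSeq promoters on build GRCm38.p6, running from 250 bases before to 50 bases after the start, and promoters were matched for 27 of the 34 genes (34 promoters). Capitals mark every match on either strand to a core nuclear receptor motif (AGGTCA), a GC box (GGGCGG) or a CCAAT box (CCAAT), and no 2 matches overlapped in them.
The windows are chr2:127854378-127854677 on the plus strand for Acoxl, chr2:154603624-154603923 on the minus strand for Pxmp4, chr7:79743082-79743381 on the minus strand for Pex11a and chr2:103485104-103485403 on the minus strand for Cat, each printed along its gene's strand.
Acoxl: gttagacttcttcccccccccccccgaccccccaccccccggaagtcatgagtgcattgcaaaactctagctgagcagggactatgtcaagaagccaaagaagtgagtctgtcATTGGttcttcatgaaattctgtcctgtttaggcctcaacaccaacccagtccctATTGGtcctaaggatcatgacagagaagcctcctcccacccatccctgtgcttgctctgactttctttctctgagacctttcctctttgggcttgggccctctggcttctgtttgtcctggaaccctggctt
Pxmp4: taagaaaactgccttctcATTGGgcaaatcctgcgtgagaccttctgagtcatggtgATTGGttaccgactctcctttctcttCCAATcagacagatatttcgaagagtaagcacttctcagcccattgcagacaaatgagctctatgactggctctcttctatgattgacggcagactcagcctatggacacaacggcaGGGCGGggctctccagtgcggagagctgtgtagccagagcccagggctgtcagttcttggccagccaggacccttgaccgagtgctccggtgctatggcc
Pex11a: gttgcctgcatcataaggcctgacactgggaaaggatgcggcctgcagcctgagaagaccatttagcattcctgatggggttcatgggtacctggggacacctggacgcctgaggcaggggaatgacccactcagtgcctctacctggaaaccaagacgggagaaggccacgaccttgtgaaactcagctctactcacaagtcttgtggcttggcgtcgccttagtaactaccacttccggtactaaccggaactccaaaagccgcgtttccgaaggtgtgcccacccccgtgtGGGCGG
Cat: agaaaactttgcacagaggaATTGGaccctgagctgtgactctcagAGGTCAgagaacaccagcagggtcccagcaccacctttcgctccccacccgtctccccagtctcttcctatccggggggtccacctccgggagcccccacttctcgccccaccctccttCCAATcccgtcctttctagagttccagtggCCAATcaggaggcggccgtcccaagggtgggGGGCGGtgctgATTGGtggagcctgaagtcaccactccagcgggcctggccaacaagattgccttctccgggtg
Cat held 1 core nuclear receptor motif, 1 GC box and 4 CCAAT boxes, Pxmp4 held 1 GC box and 3 CCAAT boxes, Pex11a held 1 GC box and Acoxl held 2 CCAAT boxes. The core nuclear receptor motif was in 14.7% of the members' promoters, against 16.3% of all 32851 promoters, and a CCAAT box was in 44.1%, against 37.4% of all. A GC box was in 64.7% of the members' promoters, against 35.7% of all. The direct repeat typical of PPAR response elements, known as DR1, matched 0 of the 34 promoters and 0.381% of all promoters. A match is a stretch of letters, and its use in these tissues was not measured.

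The first step of peroxisomal beta oxidation, a fatty acyl-CoA oxidase that makes hydrogen peroxide, was represented by 3 genes, all higher in the SG than in the IFE. Acoxl, named for its likeness to the acyl-CoA oxidases, stood at 10.95, 10.94 and 9.57 log2 intensity on the SG arrays, 7.39, 7.91 and 7.52 on the HF arrays and 5.75, 6.41 and 6.01 on the IFE arrays. The SG arrays lay above all others and the HF arrays above all IFE arrays. Its log2 difference was 4.43 ± 0.33 SE (adjusted p = 8.11e-06) for SG against IFE, a 21.5-fold higher level, and 2.88 ± 0.33 SE (adjusted p = 0.000515) for SG against HF. It was also higher in HF than in IFE (1.55 ± 0.33 SE, adjusted p = 0.00986). Of its 18 probe sets, 18 were above 0 in SG against IFE and 16 in SG against HF. The brightest probe set, taken alone, gave -0.50 in SG against HF (adjusted p = 0.207), 2.58 in SG against IFE and 3.09 in HF against IFE. With the letter block, a fit that takes the last letter of the array names in the descriptions as a batch, the HF against IFE difference was 1.64 and no longer passed (adjusted p = 0.0626). SG replicate 1, HF replicate 1 and IFE replicate 3 carry letters found on no other array, and this block takes them out of the comparison. Fewer arrays and a batch therefore cannot be told apart when a call ends with the letter block.

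Acox2, an oxidase of branched fatty acids and bile acid intermediates, stood at 7.82, 7.85 and 7.28 log2 intensity on the SG arrays, 6.72, 7.13 and 7.11 on the HF arrays and 5.91, 6.02 and 5.77 on the IFE arrays. The 3 compartments did not overlap, in the order SG, HF, IFE. The difference was 1.75 ± 0.20 SE (adjusted p = 0.000137) for SG against IFE and 1.09 ± 0.20 SE (adjusted p = 0.0041) for HF against IFE, while SG against HF did not pass (0.66 ± 0.20 SE, adjusted p = 0.0608). Its brightest probe set gave 0.30 for SG against IFE (adjusted p = 0.337) and -0.03 for HF against IFE (adjusted p = 0.953), which ended both calls. All 15 of its probe sets were above 0 in SG against IFE and 12 of 15 in HF against IFE. The HF call also ended with the mean of the probe sets (0.89) and with probe sets centred before the median (0.65).

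Acox3, which oxidises branched acyl-CoAs, stood at 10.02, 10.16 and 9.21 log2 intensity on the SG arrays, 8.00, 8.40 and 8.21 on the HF arrays and 7.98, 8.53 and 8.46 on the IFE arrays. The SG arrays were above all HF and IFE arrays, and HF and IFE overlapped. It was higher in SG than in IFE by 1.47 ± 0.25 SE (adjusted p = 0.00177) and than in HF by 1.59 ± 0.25 SE (adjusted p = 0.00255), and all 23 probe sets were above 0 in both. With the letter block the SG against HF difference was 1.38 and did not pass (adjusted p = 0.0706).

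**Figure D3:**
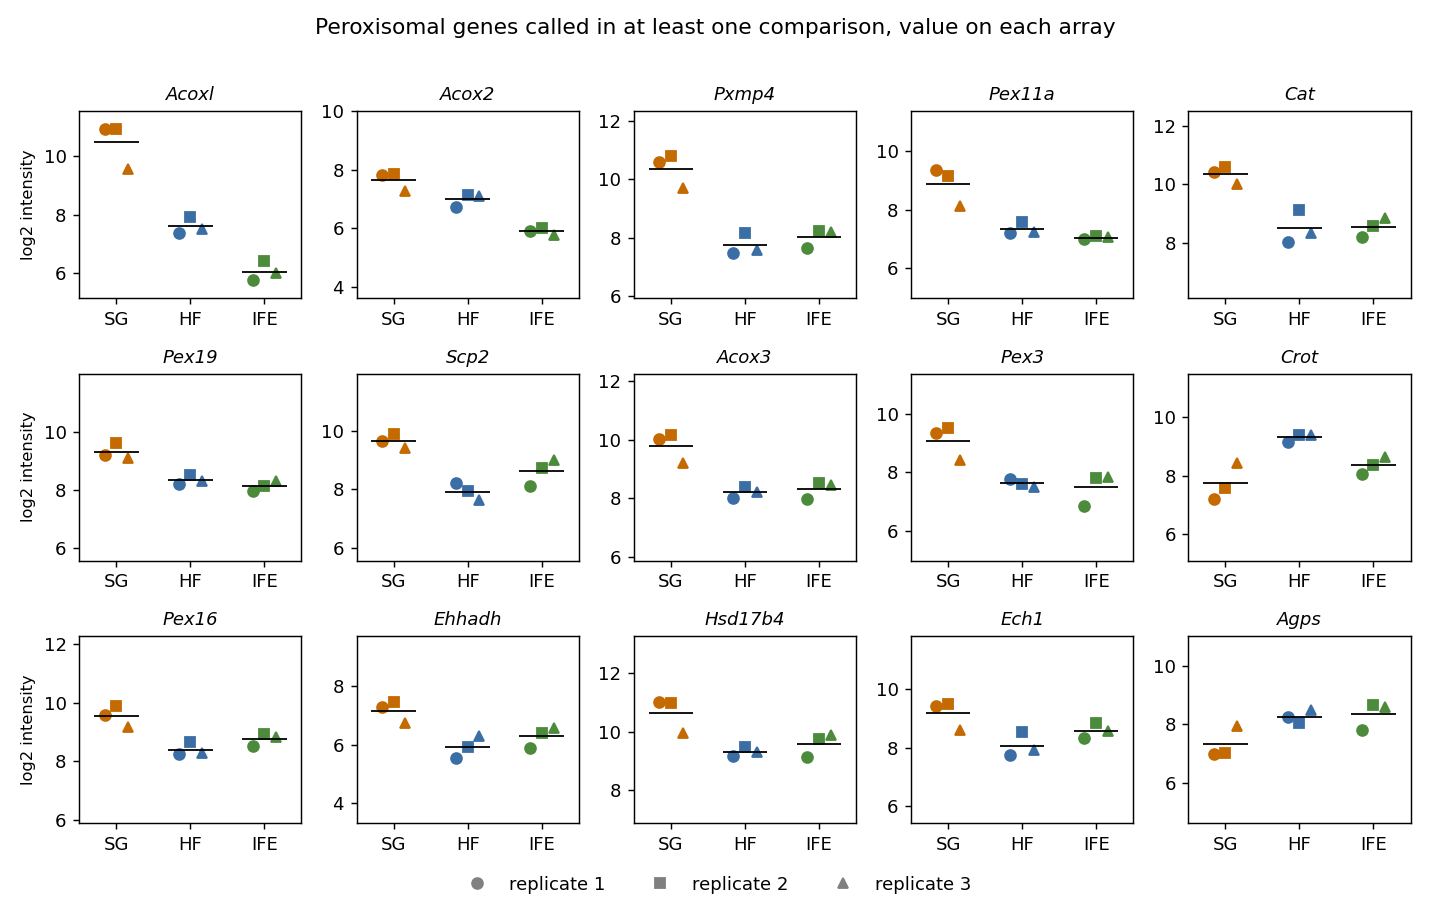
Log2 intensity on each array (y axis, of the same height in log2 units in every panel) of the 15 peroxisomal genes that passed the threshold in at least 1 comparison, in SG, HF and IFE, with a bar at the mean of 3 arrays. For 13 of the 15 genes the SG lay highest, and Crot and Agps were the 2 genes with their lowest mean in SG.

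The next steps add water and oxidise again, and both bifunctional enzymes that do this were higher in the SG than in the HF. Hsd17b4, which handles branched and very long chains, stood at 11.00, 10.98 and 9.96 log2 intensity on the SG arrays, 9.17, 9.49 and 9.28 on the HF arrays and 9.13, 9.73 and 9.88 on the IFE arrays. The SG arrays exceeded all others, with SG replicate 3 nearest to the IFE arrays. The difference was 1.07 ± 0.28 SE (adjusted p = 0.0194) for SG against IFE and 1.33 ± 0.28 SE (adjusted p = 0.0116) for SG against HF, with 25 of 25 probe sets above 0 in both. The IFE call ended without SG replicate 1 (adjusted p = 0.0705), SG replicate 2 (0.0787) or IFE replicate 1 (0.0563), with the letter block (1.04, adjusted p = 0.107), and on size with the brightest probe set (0.66) or probe sets centred before the median (0.99). The HF call ended without SG replicate 2 (adjusted p = 0.0571), HF replicate 1 (0.051) or HF replicate 3 (0.053), and with the letter block (1.08, adjusted p = 0.166).

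Ehhadh, the other bifunctional enzyme and a classic target of peroxisome proliferators in rodent liver, stood at 7.28, 7.47 and 6.74 log2 intensity on the SG arrays, 5.55, 5.92 and 6.28 on the HF arrays and 5.89, 6.39 and 6.56 on the IFE arrays. The SG arrays lay above all others, and HF and IFE overlapped. It was higher in SG than in HF by 1.24 ± 0.26 SE (adjusted p = 0.00969). Against the IFE its difference was under the size threshold (0.88 ± 0.26 SE, adjusted p = 0.0285), and it passed with quantile normalization (1.04), without SG replicate 3 (1.09) or without IFE replicate 3 (1.02). It was 0.16 with the brightest probe set (adjusted p = 0.644) and 0.62 with probe sets centred before the median (adjusted p = 0.0752). The HF call ended with the letter block (1.00, adjusted p = 0.156), the brightest probe set (0.71) and probe sets centred before the median (0.97).

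The last step is a thiolase, and Scp2 encodes both a peroxisomal thiolase for branched chains and a sterol carrier. Scp2 stood at 9.64, 9.89 and 9.39 log2 intensity on the SG arrays, 8.20, 7.93 and 7.61 on the HF arrays and 8.11, 8.73 and 8.99 on the IFE arrays. The SG arrays lay above all others, and HF replicate 1 was above IFE replicate 1. The difference was 1.72 ± 0.25 SE (adjusted p = 0.00141) for SG against HF, with 10 of 11 probe sets above 0, a call kept under each of the alternatives run. Against the IFE it was 1.03 ± 0.25 SE (adjusted p = 0.011), and 9 of 11 probe sets were above 0 with a median of 0.43. With probe sets centred before the median that difference was 0.44 (adjusted p = 0.126), with their mean 0.43 (0.148), with the brightest probe set 0.58, with array weights 0.92, without SG replicate 2 0.91 and without IFE replicate 1 0.78, none of which passed.

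Acaa1a, the thiolase of straight chains, rested on 1 probe set, since 3 further probe sets are assigned jointly to it and to Acaa1b and were not used. It stood at 8.50, 8.54 and 8.45 log2 intensity on the SG arrays, 7.72, 7.98 and 7.67 on the HF arrays and 7.21, 7.67 and 7.88 on the IFE arrays. SG lay above both other compartments, by 0.91 ± 0.19 SE (adjusted p = 0.00585) against the IFE and 0.71 ± 0.19 SE (adjusted p = 0.0395) against the HF, differences under the size threshold. It passed against the IFE in the fits without IFE replicate 3 (1.06), with the letter block (1.06), after median centring (1.01) and after quantile normalization (1.18). A jointly assigned probe set stood at 7.78 to 9.36 in SG, 5.98 to 6.38 in HF and 5.80 to 6.24 in IFE. Another stood at 12.83 to 13.12 in SG, 11.61 to 11.87 in HF and 11.81 to 12.14 in IFE. Both were higher on every SG array than on any HF or IFE array. The remaining jointly assigned probe set overlapped, with SG replicate 3 (8.27) below HF replicate 3 (8.31) and IFE replicate 2 (8.30). Whether their signal came from Acaa1a or Acaa1b was not tested. Ech1, an isomerase that helps with unsaturated chains, stood at 9.43, 9.47 and 8.60 log2 intensity on the SG arrays, 7.75, 8.53 and 7.91 on the HF arrays and 8.32, 8.85 and 8.55 on the IFE arrays. SG replicate 3 lay below IFE replicate 2, and every SG array was above every HF array. It was higher in SG than in HF by 1.11 ± 0.27 SE (adjusted p = 0.0254), with 11 of 11 probe sets above 0. That call ended without SG replicate 1 (adjusted p = 0.0909), SG replicate 2 (0.106), HF replicate 1 (0.109) or HF replicate 3 (0.111), and with the letter block (0.82, adjusted p = 0.28).

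Catalase, which breaks down the hydrogen peroxide of the oxidases, was higher in the SG than in both other compartments. Cat stood at 10.41, 10.59 and 9.99 log2 intensity on the SG arrays, 8.02, 9.11 and 8.33 on the HF arrays and 8.20, 8.56 and 8.83 on the IFE arrays. All SG arrays exceeded all others, and HF replicate 2 was the highest of the HF arrays. The difference was 1.80 ± 0.28 SE (adjusted p = 0.00088) for SG against IFE and 1.84 ± 0.28 SE (adjusted p = 0.00193) for SG against HF, and HF and IFE differed by -0.04. Both SG calls were kept under every alternative run, and 17 of 18 probe sets were above 0 in each. Dao, the D-amino acid oxidase, did not pass in any comparison, at 0.35 ± 0.23 SE for SG against IFE with an interval of -0.15 to 0.85.

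Of the 4 membrane proteins and transporters, 1, Pxmp4, was called, and it was higher in the SG than in both other compartments. Pxmp4, a membrane protein whose function is not settled, stood at 10.61, 10.79 and 9.71 log2 intensity on the SG arrays, 7.50, 8.16 and 7.58 on the HF arrays and 7.67, 8.23 and 8.21 on the IFE arrays. The SG arrays lay above all others, and HF and IFE overlapped. The difference was 2.33 ± 0.29 SE (adjusted p = 0.000229) for SG against IFE, 5.03-fold, and 2.62 ± 0.29 SE (adjusted p = 0.000416) for SG against HF, 6.14-fold, each with 6 of 6 probe sets above 0 and without overlap of the arrays. Abcd3, the transporter that carries acyl-CoAs into the organelle, stood at 10.37, 10.53 and 9.69 log2 intensity on the SG arrays, 8.93, 9.57 and 9.27 on the HF arrays and 9.62, 10.19 and 9.95 on the IFE arrays. It did not pass for SG against IFE (0.28 ± 0.25 SE, adjusted p = 0.461), and for SG against HF it was under the size threshold (0.94 ± 0.25 SE, adjusted p = 0.0365), passing without SG replicate 3 (1.19), without HF replicate 2 (1.10), with quantile normalization (1.08), array weights (1.08) or median centring (1.01). It was 0.42 with the brightest probe set (adjusted p = 0.252) and 0.65 with probe sets centred before the median (adjusted p = 0.0888). Abcd4, a relative of the same transporter family, and Pxmp2, a channel of the membrane, did not pass in any comparison.

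Of the 3 peroxins that place proteins in the peroxisomal membrane, 2 were higher in the SG than in the IFE (Pex3 and Pex19) and 2 than in the HF (Pex3 and Pex16). Pex3, the membrane anchor for new membrane proteins, stood at 9.34, 9.50 and 8.41 log2 intensity on the SG arrays, 7.76, 7.61 and 7.51 on the HF arrays and 6.86, 7.81 and 7.85 on the IFE arrays. The SG arrays exceeded all others. The difference was 1.58 ± 0.31 SE (adjusted p = 0.00384) for SG against IFE and 1.46 ± 0.31 SE (adjusted p = 0.0114) for SG against HF, with 13 of 13 probe sets above 0 in both. The HF call ended without SG replicate 2 (adjusted p = 0.0568) or HF replicate 3 (0.0567) and with the letter block (1.40, adjusted p = 0.122).

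Pex19, the soluble chaperone that delivers membrane proteins to Pex3, stood at 9.20, 9.61 and 9.10 log2 intensity on the SG arrays, 8.20, 8.53 and 8.32 on the HF arrays and 7.96, 8.13 and 8.31 on the IFE arrays. Every SG array was above every other array. It passed for SG against IFE (1.17 ± 0.19 SE, adjusted p = 0.00115) and was just under the size threshold for SG against HF (0.95 ± 0.19 SE, adjusted p = 0.00796), where 10 of 10 probe sets were above 0. Probe sets centred before the median gave 1.31 for SG against HF (adjusted p = 0.00187), which passed, as it did with the brightest probe set (1.56), the mean of the probe sets (1.34), quantile normalization (1.12), array weights (1.07), median centring (1.02), and without SG replicate 1 (1.00), SG replicate 3 (1.05) or HF replicate 2 (1.04).

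Pex16, which recruits Pex3 to the membrane, stood at 9.59, 9.91 and 9.18 log2 intensity on the SG arrays, 8.26, 8.66 and 8.29 on the HF arrays and 8.53, 8.94 and 8.84 on the IFE arrays. Its SG arrays were above all others. It passed for SG against HF (1.15 ± 0.22 SE, adjusted p = 0.0059), a call that ended without SG replicate 2 (0.98) and with the letter block (1.07, adjusted p = 0.107). Against the IFE it was under the size threshold (0.79 ± 0.22 SE, adjusted p = 0.0219) and passed with quantile normalization (1.15) or the brightest probe set (1.06). All 13 probe sets were above 0 in both comparisons.

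Pex11a, which elongates the membrane before a peroxisome divides and is inducible by PPAR ligands in rodents, stood at 9.37, 9.16 and 8.12 log2 intensity on the SG arrays, 7.21, 7.57 and 7.22 on the HF arrays and 6.99, 7.10 and 7.06 on the IFE arrays. SG replicate 3 was the lowest SG array and still exceeded all HF and IFE arrays. The difference was 1.83 ± 0.28 SE (adjusted p = 0.000752) for SG against IFE and 1.55 ± 0.28 SE (adjusted p = 0.00456) for SG against HF, with 4 of 4 probe sets above 0, and the HF call ended with the letter block (1.24, adjusted p = 0.0666). Pex11g, of the same family, stood at 7.96, 7.58 and 7.36 log2 intensity on the SG arrays, 7.20, 7.55 and 7.20 on the HF arrays and 7.40, 7.23 and 7.50 on the IFE arrays. It did not pass in any comparison (0.26 ± 0.20 SE for SG against IFE). Its brightest probe set alone gave -1.46 for SG against IFE (adjusted p = 0.0121), opposite in sign to the other 4 probe sets. The dynamin fission list (Fis1, Mff, Dnm1l and Gdap1) had 0 of 4 genes past the limma threshold in the 3 comparisons. With 9.49% of all genes called in SG against IFE, 6.31% in HF against IFE and 5.11% in SG against HF, that count is near the background. At an unadjusted limma p under 0.05 there was 1 gene in SG against IFE and 0 in the others, and the share of all genes at that cut was not computed.

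The matrix import receptors Pex5 and Pex7, the docking proteins Pex13 and Pex14, the Pex5 relative Pex5l, and the receptor recycling proteins Pex2, Pex6 and Pex26 gave 0 calls of 8 genes in each comparison. With 9.49% of all genes called in SG against IFE, 6.31% in HF against IFE and 5.11% in SG against HF, fewer than 1 call among 8 genes would match the background, so the count says nothing particular about these genes. At an unadjusted limma p under 0.05, 1 of the 8 was higher and 0 lower in SG against IFE, 0 higher and 2 lower in HF against IFE, and 1 higher and 0 lower in SG against HF. The share of all genes at this cut was not computed, so these counts are not set against a background. Their SG against IFE differences ran from -0.54 (Pex7) to 0.63 (Pex5), and the interval of Pex6, the motor of receptor recycling, was -0.36 to 0.33. Pex5, the receptor for the commonest targeting signal, stood at 7.51, 7.74 and 7.45 log2 intensity on the SG arrays, 6.81, 7.25 and 6.86 on the HF arrays and 6.80, 7.02 and 7.00 on the IFE arrays. The SG arrays lay above all others, by 0.63 ± 0.18 SE (adjusted p = 0.0258) against the IFE, under the size threshold. Pex7, the receptor for the second signal, which Agps and Phyh among others carry, differed by -0.54 ± 0.30 SE for SG against IFE (adjusted p = 0.228), with 0 of 9 probe sets above 0. For HF against IFE it differed by -0.65 ± 0.30 SE (adjusted p = 0.19), also with 0 of 9 probe sets above 0. The SG against HF difference of Pex7 was 0.11 ± 0.30 SE.

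The value of Pex13 moved with the summary of its probe sets. Pex13 stood at 9.25, 9.31 and 8.80 log2 intensity on the SG arrays, 8.81, 8.80 and 8.77 on the HF arrays and 9.17, 9.17 and 9.19 on the IFE arrays. The HF arrays lay below all IFE arrays, by -0.39 ± 0.17 SE (adjusted p = 0.179), and the SG overlapped the IFE. The median of its 8 single probe set differences was -1.03 in HF against IFE and -0.69 in SG against IFE. With probe sets centred before the median, HF was lower than IFE by the threshold (-1.04 ± 0.17 SE, adjusted p = 0.00272), as it was with the brightest probe set (-1.37).

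**Figure D4:**
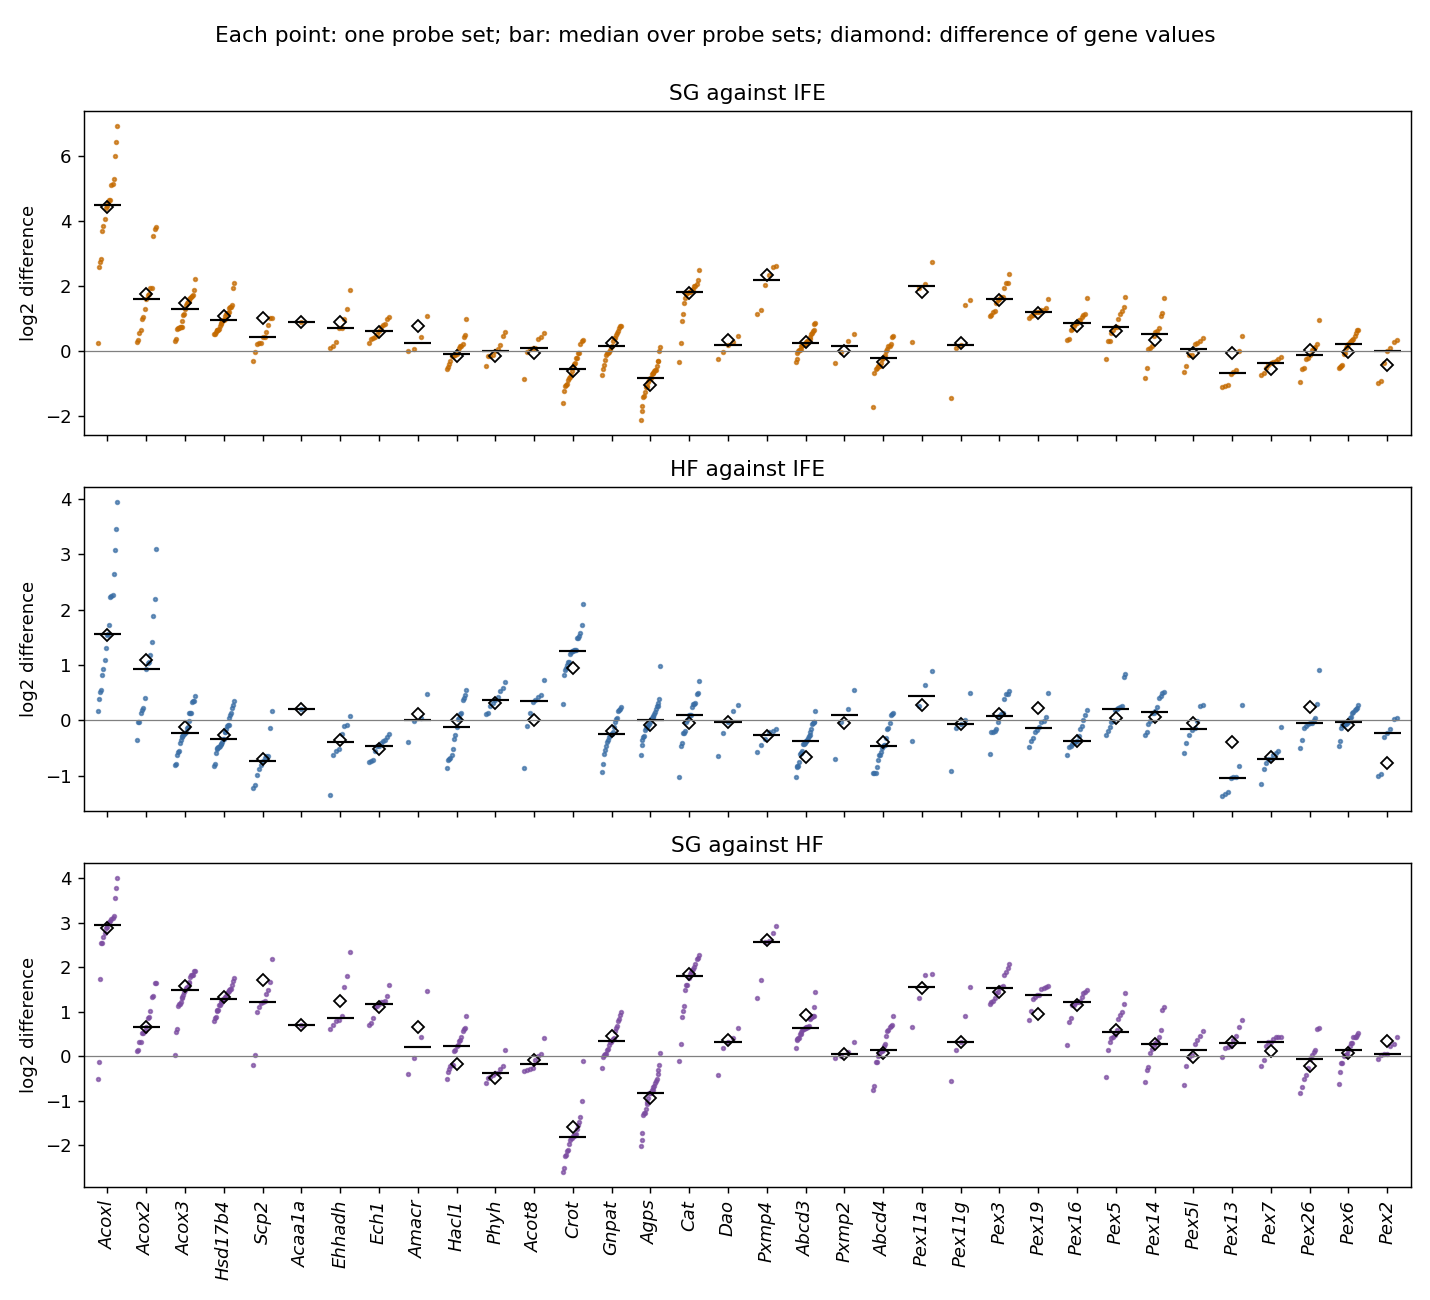
Log2 difference of every probe set (points) of the 34 genes in the 3 comparisons, with the median over probe sets (bar) and the difference of the gene values used in the text (diamond). Bar and diamond lie apart for Scp2 and Pex13 in the first panel, at 0.43 against 1.03 and -0.69 against -0.06, and close together for Acoxl, Cat and Pex3.

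Of the 2 ether lipid enzymes and 2 exporters of shortened acyl chains, none was called higher in the SG. Among all genes 2.54% were called higher in SG against IFE and 1.81% in SG against HF. The lack of such a call among so few genes is near the background and says nothing particular about them. Agps, which exchanges the acyl chain of an ether lipid precursor for a fatty alcohol, was the 1 member lower in SG than in IFE and was chosen for description after its values were seen. It stood at 6.97, 7.01 and 7.95 log2 intensity on the SG arrays, 8.25, 8.04 and 8.47 on the HF arrays and 7.79, 8.64 and 8.59 on the IFE arrays. SG replicate 3 was above IFE replicate 1, so the groups overlapped. The difference was -1.03 ± 0.29 SE (adjusted p = 0.0261) for SG against IFE, with 1 of 24 probe sets above 0, and it did not pass under 11 of 21 alternatives, among them quantile normalization (-0.76), median centring (-0.93) and each of the fits without SG replicate 1 (-0.86), SG replicate 2 (-0.88), IFE replicate 2 (-0.88) or IFE replicate 3 (-0.90). Against the HF it was -0.94 ± 0.29 SE (adjusted p = 0.0678), and it passed without SG replicate 3 (-1.26) or with array weights (-1.12). Gnpat, the acyltransferase of the preceding step, did not pass in any comparison (0.26 ± 0.24 SE for SG against IFE).

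Crot, which turns shortened acyl-CoAs into carnitine esters for transfer to mitochondria, was the 1 member lower in SG than in HF. It stood at 7.19, 7.57 and 8.44 log2 intensity on the SG arrays, 9.15, 9.40 and 9.40 on the HF arrays and 8.07, 8.38 and 8.63 on the IFE arrays. The HF arrays lay above all SG and all IFE arrays, and SG overlapped IFE. The difference was -1.58 ± 0.28 SE (adjusted p = 0.0044) for SG against HF, kept under every alternative run, with 0 of 20 probe sets above 0. HF against IFE was just under the size threshold (0.95 ± 0.28 SE, adjusted p = 0.0452), with 20 of 20 probe sets above 0, and passed with probe sets centred before the median (1.15), their mean (1.24), quantile normalization (1.14) or the letter block (1.17), while without any 1 of the HF or IFE arrays its adjusted p was 0.064 to 0.138. SG against IFE did not pass (-0.62 ± 0.28 SE, adjusted p = 0.135), and its brightest probe set alone passed as lower (-1.02). Acot8, a thioesterase that releases acyl chains from CoA, did not pass in any comparison, and neither did Phyh and Hacl1 of the alpha oxidation of phytanic acid. Amacr, a racemase of branched chains, had a difference of 0.78 ± 0.19 SE (adjusted p = 0.0133) for SG against IFE, under the size threshold, and passed with quantile normalization (1.01). With probe sets centred before the median it was 0.34 (adjusted p = 0.107), with the brightest probe set 0.00, and the median of its 4 probe set differences was 0.26.

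Between HF and IFE, 2 of the 34 genes passed, Acoxl and Acox2, both higher in HF. Sebocyte markers were also higher on the HF arrays (8.26 to 8.86) than on the IFE arrays (6.36 to 6.80). The part of sebocytes in the HF pieces in these calls was not tested. The background was 2.96% of all genes upward and 3.36% downward, or 6.31% in either direction, and the share of the 34 genes was 5.88%. With no demand on size, 3 members were higher (4.81% of all genes) and 0 lower (7.25%). Without overlap of the arrays, 4 were higher (13.5% of all genes) and 4 lower (19.3%). No member was called lower by limma, while 4 were lower and 3 higher at an unadjusted p under 0.05. The share of all genes at that unadjusted cut was not computed, so these counts are not set against a background. The median log2 difference was -0.05 for the 34 genes and -0.07 for all genes. Pex2, a ubiquitin ligase of receptor recycling, had the lowest gene value difference (-0.77 ± 0.24 SE, adjusted p = 0.0553) and passed without IFE replicate 1 (-1.04). With probe sets centred before the median it was -0.42 (adjusted p = 0.141), and Pex13 (-1.04), Pex7 (-0.76) and Scp2 (-0.76) were lower than it. Scp2 (-0.69 ± 0.25 SE, adjusted p = 0.0932) and Abcd3 (-0.66 ± 0.25 SE, adjusted p = 0.118) did not pass.

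Genes of other peroxisomal functions, 41 of 53 listed ones measured, had 5 higher and 3 lower for SG against IFE, with a median log2 difference of -0.07. The background was 2.54% of all genes higher and 6.96% lower, which the count of 3 is close to. Far2, whose fatty alcohol product is the substrate of Agps and of wax synthases, was higher by 5.34 ± 0.29 SE (adjusted p = 1.18e-06). It was also among the sebocyte markers used to check the titles, so its difference is not separate from that check. Also higher were Eci2, an enoyl-CoA isomerase (3.28 ± 0.23, adjusted p = 5.97e-06), Crat, a carnitine acetyltransferase (3.08 ± 0.20, adjusted p = 4.37e-06), and Idh1, a supplier of NADPH (2.47 ± 0.29, adjusted p = 0.000153). Crat stood at 10.35, 10.52 and 10.06 on the SG arrays, 9.01, 9.11 and 8.98 on the HF arrays and 6.85, 7.27 and 7.56 on the IFE arrays, without overlap of the compartments. Lower were Acbd5, a tether to the endoplasmic reticulum (-1.79 ± 0.17, adjusted p = 4.57e-05) and Xdh, the xanthine oxidoreductase (-1.58 ± 0.21, adjusted p = 0.000374), and the carrier Slc25a17 was also lower. In HF against IFE 5 of the 41 were higher (2.96% of all genes) and 5 lower (3.36%), with Acbd5 at -1.75 ± 0.17 (adjusted p = 6.91e-05). In SG against HF 6 were higher and 1, Uox, was lower (-1.19 ± 0.25, adjusted p = 0.0112), beside 1.81% and 3.3% of all genes. In the plasmalogen list, 1 of 7 genes was higher in SG than in IFE, Far2, which the list of other peroxisomal functions also counts. Lower was 1, the phosphotransferase Cept1 (-1.66 ± 0.19, adjusted p = 0.000122). Beside 2.54% of all genes higher and 6.96% lower, counts of 1 in so short a list are not read as a result about it.

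Mitochondrial beta oxidation, the parallel pathway for shorter chains, had 4 of 18 measured genes higher and 1 lower in SG than in IFE. Among all genes 2.54% were higher and 6.96% lower, which the count of 1 is close to. Decr1, a reductase for unsaturated chains, was higher by 2.73 ± 0.31 SE (adjusted p = 0.000125), the carnitine carrier Slc25a20 by 1.06 ± 0.22 (adjusted p = 0.00542), Acad9 by 1.05 ± 0.23 (adjusted p = 0.00765) and the dehydrogenase Acadl by 1.22 ± 0.28 (adjusted p = 0.00866). The entry enzyme Cpt1a was lower (-1.19 ± 0.19, adjusted p = 0.00127). The median difference was 0.60 over this list, 0.35 over the 34 peroxisomal genes and -0.06 over all genes. In SG against HF 5 of 18 were higher (1.81% of all genes), with Decr1 at 2.56 ± 0.31 (adjusted p = 0.00061), Acad9 at 1.59 ± 0.23 (adjusted p = 0.00162), Echs1 at 1.56 ± 0.27 (adjusted p = 0.00379) and Acaa2 at 1.16 ± 0.22 (adjusted p = 0.00628). In HF against IFE 0 of the 18 were higher by limma (2.96% of all genes) and 1, Echs1, was lower (3.36%), counts near the background. At an unadjusted limma p under 0.05 there were 7 in either direction, and the share of all genes at that cut was not computed.

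**Figure D5:**
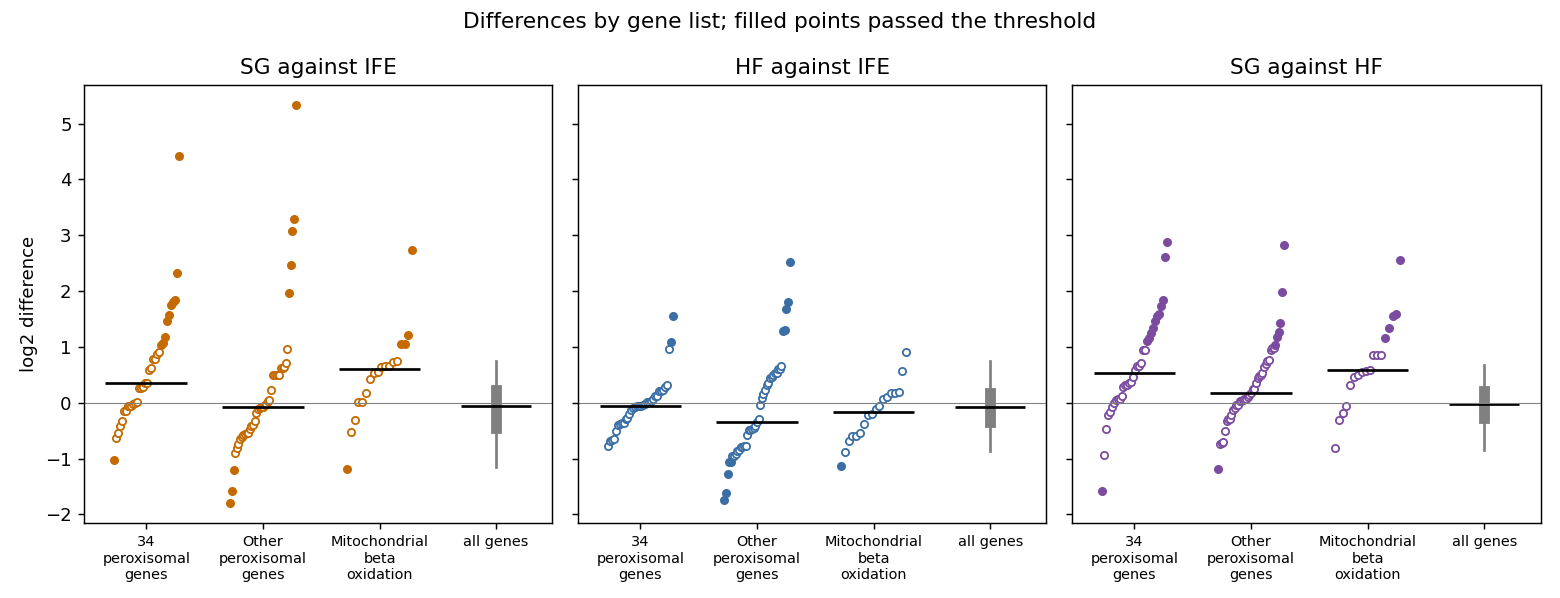
Log2 difference of the 34 peroxisomal genes, of 41 other peroxisomal genes and of 18 mitochondrial beta oxidation genes in the 3 comparisons, with a bar at the median and filled points past the threshold. The last column gives all genes as their median, interquartile range and 5% to 95% range. Medians of the 34 genes were 0.35, -0.05 and 0.53 in the 3 panels.

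Of 8 genes of the PPAR system, the nuclear receptors and coactivators known to control peroxisomal genes in rodent liver and fat, 2 were higher in the SG than in both other compartments. Among all genes 0.979% were called higher in both comparisons. Ppara stood at 8.05, 7.55 and 7.01 on the SG arrays, 6.30, 6.58 and 6.35 on the HF arrays and 6.39, 6.26 and 6.57 on the IFE arrays. It was higher by 1.13 ± 0.24 SE against the IFE (adjusted p = 0.00546) and by 1.13 ± 0.24 against the HF (adjusted p = 0.0108). Pparg stood at 9.95, 9.64 and 8.51 on the SG arrays, 6.72, 6.80 and 6.78 on the HF arrays and 6.25, 5.82 and 5.89 on the IFE arrays, with SG replicate 3 again the lowest SG array. It was higher by 3.38 ± 0.30 against the IFE and by 2.60 ± 0.30 against the HF. Pparg, too, was among the sebocyte markers used to check the titles.

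SG replicate 3 was the lowest SG array for 10 of the 10 members called higher against the IFE and for 11 of the 11 called higher against the HF. Without it, 11 members were higher (2.72% of all genes) and 1 lower (8.98%) against the IFE, and 13 were higher (2.07%) and 2 lower (4.78%) against the HF. With both it and HF replicate 2 left out, an alternative chosen after seeing the data, the counts were 11 higher (2.74% of all genes) and 1 lower (9%) against the IFE, and 13 higher (2.5%) and 2 lower (4.71%) against the HF. IFE replicate 1 was the lowest IFE array for 9 of the 10 members called higher against the IFE, and 8 were called higher without it (2.52% of all genes). The share of all genes for which SG replicate 3 or IFE replicate 1 was the lowest of its compartment was not computed. How often these arrays were lowest among the called members is therefore not set against a background.

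With quantile normalization the median difference of all genes in SG against IFE was 0.16 in place of -0.06, and 14 members were higher and 0 lower, beside 4.20% of all genes higher. With the letter block, which also takes arrays out of the comparison, the SG against HF count was 4 in place of 11 (0.82% of all genes). Those left were Acoxl, Cat, Pxmp4 and Scp2. The count was 7 without SG replicate 2 (1.48% of all genes, where 1.81% were called with all arrays).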

How the data were processed

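The authors deposited a table of intensity values per probe set, on a linear scale of 2.5 to 30815, for 9 mouse exon arrays of 3 compartments with 3 replicates each. RMA, Affymetrix Power Tools and build mm9 are named in the submitters' processing notes; no version or order is stated there, and RMA values are usually on a log scale, so how the deposited values were put on a linear scale is unknown. Array medians ran from 176 to 234, and the number of arrays limits the precision. Of 154736 probe sets, 146964 had 1 gene symbol, 1060 had several and 6712 had none in the platform annotation; those with 1 were used. Values were taken to log2, and the median over a gene's probe sets gave 14507 genes, without further normalization. Pex2 was found as Pxmp3 and Pex11g as Pex11c. limma 3.58.1 (R 4.3.3, lmFit and eBayes) fitted 1 mean per compartment over 9 arrays, with Benjamini-Hochberg adjustment of the p-values across all genes within each comparison. The script was tested on simulated data.

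The members, lists and tests were chosen with earlier results of these data known. Per-array values were to be given for at most 14 called members, by smallest adjusted p, and for members of the same role moving the other way; Agps, Acaa1a, Abcd3, Pex5, Pex11g and Pex13 were added after their values were seen. From each other list, up to 4 called genes by smallest adjusted p and up to 2 in the opposite direction were named, plus Ppara and Pparg. Alternatives were blocks by replicate number and by letter, quantile normalization, median centring, leaving out genes below the median level, the brightest probe set, the mean of probe sets, trend and robust options, array weights, fits of 2 groups, other size thresholds and each array left out. Without SG replicate 3 and HF replicate 2 together, and probe sets centred before the median, were chosen after seeing the data. Protein sequences were not used here.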

Additional observations from a re-analysis of the deposited data

How the results depend on the processing

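Of 25 calls of a member in a comparison, 11 were kept under each of the alternatives run (Acox3, Acoxl, Cat, Pex11a, Pex19, Pex3 and Pxmp4 for SG against IFE, and Cat, Crot, Pxmp4 and Scp2 for SG against HF), and the cause of the losses was not tested. Members lower in SG than in IFE numbered 0 with the letter block, quantile normalization, median centring, the mean of probe sets, 2 groups alone and probe sets centred before the median, where 3.28% to 6.82% of all genes were lower, and 2 with the brightest probe set (7.74%). Members higher in SG than in HF numbered 4 with the letter block (0.82%), and those lower numbered 2 with array weights (4.02%) or without SG replicate 3 and HF replicate 2 together (4.71%). Members higher in HF than in IFE numbered 1 with the dimmer genes left out (24 members measured, 3.14% of the genes kept) or the brightest probe set (3.65%), and those lower numbered 1 with the brightest probe set (3.68%) or centred probe sets (3%). The median difference for SG against IFE was 0.65 with quantile normalization, 0.69 with the dimmer genes left out and 0.57 without both doubted arrays; for SG against HF it was 0.82 with the dimmer genes left out and 0.77 without both arrays. With the brightest probe set the sign turned for Acoxl in SG against HF (-0.50), Acox2 in HF against IFE (-0.026) and Pex11g in SG against IFE (-1.46). Leaving out 1 array gave, for SG against IFE, 8 to 12 members higher (2.39% to 2.83% of all genes) and 0 to 1 lower (5.51% to 9.56%), with a median of 0.26 to 0.57. For HF against IFE it gave 2 higher (2.47% to 3.05%) and 0 to 1 lower (2.58% to 5.06%), and for SG against HF 7 to 13 higher (1.28% to 2.24%) and 1 to 2 lower (2.41% to 4.78%), with a median of 0.43 to 0.64. With the replicate number as a block, the counts, higher and lower, were 10 and 1 for SG against IFE (2.62% and 7.02% of all genes). They were 2 and 0 for HF against IFE (3.05% and 3.46%) and 11 and 1 for SG against HF (1.94% and 3.44%). Same-numbered arrays of different compartments correlated by -0.02 to 0.23 in their deviations, and differently numbered ones by -0.16 to 0.11. These ranges overlap and cannot decide whether same-numbered arrays share an animal or day. The main fit had no block because replicate numbers were not stated to mark either.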
